A study of Mus musculus with 22 samples.

Results

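The Prl, Psg and Ceacam genes are multigene families that lie as tandem copies in the mouse genome and that are known mainly from the placenta. Members were taken by gene symbol: Prl itself, Prl followed by a number, a letter and a number, Psg followed by a number, and Ceacam followed by a number. This gave 55 genes, made up of 27 Prl, 13 Psg and 15 Ceacam genes, among 21032 gene symbols. They were measured by RNA sequencing in primary mouse embryonic fibroblasts that lack Lsh (KO, Lsh-/-) and in wild-type fibroblasts (WT, Lsh+/+), with 2 libraries per genotype, called KO1, KO2, WT1 and WT2. Lsh, the product of the gene Hells, is a chromatin remodeller of the SNF2 family, without which DNA methylation is reduced. By their labels, all cells were C57BL/6, came from the body of E13.5 embryos, were genotyped and were used at passage 3 to 4, and no treatment is given. The labels call the libraries of a genotype biological replicates. They do not describe the Lsh allele, the number of embryos behind a culture, or what libraries with the same replicate number have in common.

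Prolactin is a pituitary hormone that signals through the receptor Prlr, the kinase Jak2 and the transcription factors Stat5a and Stat5b. In rodents its gene has been copied many times, and most of the copies encode placental hormones made by trophoblast cells: the placental lactogens, the proliferins and a group of prolactin-like proteins, several of which are not known to bind Prlr. Psg genes encode pregnancy-specific glycoproteins, secreted by trophoblast and related to the Ceacam adhesion molecules, which are found on epithelia, endothelium, leukocytes and, for some members, trophoblast. Most of these genes are known from the placenta rather than from connective tissue, but the proliferins were first found in growing mouse fibroblast lines.

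Several members are near-identical copies, so reads from one could be counted on another, and the sources used here do not say how such reads were treated. By promoter identity, the closest Prl copies among those compared are Prl3d1, Prl3d2 and Prl3d3, which all encode placental lactogen I, the early lactogen of trophoblast giant cells. Their promoters, taken from RefSeq on GRCm38.p6, were 99.6% identical between Prl3d2 and Prl3d3, 98.3% between Prl3d1 and Prl3d3 and 97.9% between Prl3d1 and Prl3d2. The 3 windows share 229 bases with 5 differing positions. The 110 bases below hold 4 of them and are shown because they let the copies be compared letter by letter; capitals mark the positions at which the copies are not all the same. They lie on the plus strand at chr13:27094079-27094188 (Prl3d1), chr13:27121568-27121677 (Prl3d2) and chr13:27156663-27156772 (Prl3d3), and each holds the sequence TGACTCA.
Prl3d1: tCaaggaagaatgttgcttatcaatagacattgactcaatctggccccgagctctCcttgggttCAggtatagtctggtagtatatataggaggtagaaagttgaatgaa
Prl3d2: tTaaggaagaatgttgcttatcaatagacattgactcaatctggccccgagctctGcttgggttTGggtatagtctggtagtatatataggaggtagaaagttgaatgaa
Prl3d3: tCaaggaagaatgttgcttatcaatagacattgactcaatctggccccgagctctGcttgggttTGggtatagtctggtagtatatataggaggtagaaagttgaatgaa

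The promoter table held 51 entries for 45 of the 55 members (22 Prl, 10 Psg and 13 Ceacam genes). The proliferin genes Prl2c2 and Prl2c4 were among those without an entry and could not be compared. Within families, 354 pairs were aligned, and 14 were at least 90% identical over at least 150 aligned columns. Besides the placental lactogen I copies they included Prl2c3 and Prl2c5 (96.4%), both of these with Prl7d1 (94.8% each), Psg23 and Psg21 (98.8%), Psg18 and Psg28 (97.5%) and Ceacam10 and Ceacam1 (95.7%). The remaining pairs were all Psg genes. These windows lie before the transcripts and give no reads themselves; the identity of the transcripts was not measured, so how far their reads can be exchanged is not known from these values.

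The most abundant member of each family and the Prl8a6 gene are shown next, since the results turn on them. Each line gives the 250 bases before the transcription start on GRCm38.p6: chr13:27259239-27259488 on the plus strand for Prl3a1, chr13:27438689-27438938 on the minus strand for Prl8a6, chr7:19965162-19965411 on the plus strand for Ceacam20 and chr7:18432056-18432305 on the minus strand for Psg28. Capitals mark CG, the dinucleotide that DNA methylation acts on, and TGACTCA read on either strand, the binding sequence of AP-1 factors such as Fos and Jun. AP-1 and GATA factors are known to act on the mouse placental lactogen I promoter.
Prl3a1: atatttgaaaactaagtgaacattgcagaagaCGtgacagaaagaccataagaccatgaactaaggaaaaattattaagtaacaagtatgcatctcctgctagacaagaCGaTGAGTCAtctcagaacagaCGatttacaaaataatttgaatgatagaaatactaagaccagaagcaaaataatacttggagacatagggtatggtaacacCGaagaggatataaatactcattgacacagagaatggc
Prl8a6: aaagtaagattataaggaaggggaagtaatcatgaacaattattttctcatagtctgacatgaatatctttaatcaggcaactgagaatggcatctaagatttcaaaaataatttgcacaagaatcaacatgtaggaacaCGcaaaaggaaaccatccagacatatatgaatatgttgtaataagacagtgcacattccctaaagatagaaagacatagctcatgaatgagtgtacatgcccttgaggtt
Ceacam20: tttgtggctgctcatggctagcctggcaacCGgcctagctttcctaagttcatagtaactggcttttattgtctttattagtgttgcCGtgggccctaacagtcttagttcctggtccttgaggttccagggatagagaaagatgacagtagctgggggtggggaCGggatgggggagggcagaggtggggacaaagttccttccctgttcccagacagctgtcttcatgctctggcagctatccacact
Psg28: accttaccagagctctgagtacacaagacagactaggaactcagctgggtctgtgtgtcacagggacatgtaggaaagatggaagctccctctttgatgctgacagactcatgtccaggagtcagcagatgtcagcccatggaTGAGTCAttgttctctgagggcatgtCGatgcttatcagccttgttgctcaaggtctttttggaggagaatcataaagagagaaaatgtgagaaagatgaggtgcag

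These promoters hold few CG dinucleotides: 4 in Prl3a1, 1 in Prl8a6, 3 in Ceacam20 and 1 in Psg28. Over the 51 member entries the median was 2 CG per 250 bases, with a range of 0 to 5. Over all 32851 entries of the table the median was 6, and the quartiles were 2 and 16. TGACTCA, searched on both strands, was present in 5 of 25 Prl entries (20.0%; Prl3d1, Prl3d2, Prl3d3, Prl3a1 and Prl7a1), in 3 of 11 Psg entries (27.3%; Psg28 and both overlapping entries of Psg18) and in 0 of 15 Ceacam entries, against 4.46% of all entries. GATA, also searched on both strands, was present in 84.0% of Prl entries, 90.9% of Psg entries and 60.0% of Ceacam entries, against 53.6% of all entries. A GATA on either strand can share a base with a CG. A match describes the letters and is not a measured binding site, and near-identical entries are not independent of each other.

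Levels are given as RPKM, reads per kilobase of transcript and per M (mega) reads mapped, as the authors deposited them. The replicate 1 libraries list 26886 transcript rows and the replicate 2 libraries 21136, so 41 members have rows in KO1 and WT1 alone and 14 members (8 Prl, 2 Psg and 4 Ceacam genes) have rows in all 4 libraries. The whole reads behind the RPKM values gave depths of 122.5 to 176.6 M mapped reads, at which 3 reads on a transcript of 1 kb, the most that a count of 0 allows, correspond to 0.0245, 0.0220, 0.0227 and 0.0170 RPKM in KO1, KO2, WT1 and WT2. Hells was at 0.430 and 0.550 RPKM in KO1 and KO2, against 0.865 and 1.06 RPKM in WT1 and WT2, which follows the labels; whether its rows lie in the deleted part is not stated. Gapdh, an enzyme that every cell uses, was at 0.298 and 0.179 RPKM in KO1 and KO2 and at 0.160 and 0 RPKM in WT1 and WT2, so a value of 0 in these files is given as listed at 0 and not as absence. The cultures carried the RNA of fibroblasts: 12 of 12 fibroblast markers were tested, and their summed level was 3220 and 3383 RPKM in KO1 and KO2 and 2974 and 3386 RPKM in WT1 and WT2. These sums hide splits by replicate number in both directions. Lum was at 1.27 and 0.718 RPKM in KO1 and WT1, against 105 and 108 RPKM in KO2 and WT2. S100a4 was at 313 and 277 RPKM in KO1 and WT1, against 45.7 and 35.6 RPKM in KO2 and WT2. The trophoblast markers were mixed. Elf5 was listed at 0 in KO1, KO2 and WT1 and at 0.00265 RPKM in WT2, Gcm1 did not exceed 0.0139 RPKM, and Cdx2 and Tpbpb were listed at 0 in KO1 and WT1. Others had reads in every library, with Eomes at 0.310 and 0.107 RPKM in KO1 and KO2, against 0.270 and 0.0555 RPKM in WT1 and WT2, and Peg10, an imprinted gene not limited to trophoblast, at 3.91 to 9.19 RPKM.

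KO was set against WT to ask whether these genes differ when Lsh is missing. In the Prl family most detected members were higher in KO, most clearly Prl3d2 and Prl8a6, at levels that were low beside most expressed genes. Only 1 member, Prl3a1, was high enough to enter the test across all genes. It was not called, whether the replicate number was left out of the fit (0% of genes called) or entered as a term (0.673% called, 0.377% with KO higher). The other members, Prl3d2 and Prl8a6 among them, could not be called there. With no limit on low values 14 members entered, and 0 were called in either fit, beside 0 of all 16266 genes. Because the libraries split by replicate number, the fit without it has little power, and its lack of calls does not show that genes did not differ. Of the 55 members, 17 were higher in KO1 than in WT1, 5 were lower and 33 were listed at 0 in both; among all 21032 genes, 32.5% were higher and 42.7% lower. The 8 members at 0.1 RPKM or more in either library were all higher in KO1. Only Prl and Prl3a1 reached 0.1 RPKM in WT1 as well. The others passed that limit through KO1 alone, which fixed their direction, and no share over all genes is given. Of the 47 members below 0.1 RPKM in both libraries, 9 were higher and 5 lower. Among all 8469 genes below it, 21.1% were higher and 17.2% lower. Within the Prl family the counts were 14 higher, 4 lower and 9 at 0 in both. The Psg genes were at or near 0 in the libraries that list them, and of the Ceacam genes Ceacam20 and, by a small margin, Ceacam1 were higher in both KO libraries than in both WT libraries.

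Among the 14 members with rows in all 4 libraries, both KO libraries were above both WT libraries in 5, namely Prl3d2, Prl3d3, Prl8a6, Ceacam20 and Ceacam1. This pattern held for 7.79% of all 16266 genes with such rows, and for 11.2% of those with a mean below 0.5 RPKM. The reverse pattern was found in 0 of the 14 members, against 8.02% of all genes and 9.18% of the low ones. Within both replicate numbers 7 of the 14 members were higher in KO, the further ones being Prl3a1 and Prl8a9, against 23% of all genes; 0 were lower in both, against 29% of all genes. Prl3d3 and Ceacam20 were listed at 0 in WT2, so within replicate 2 only KO2 has reads for them, and they may be in the set only through KO2. The copies among these members may share reads, and the members are not independent of each other.

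**Figure D1:**
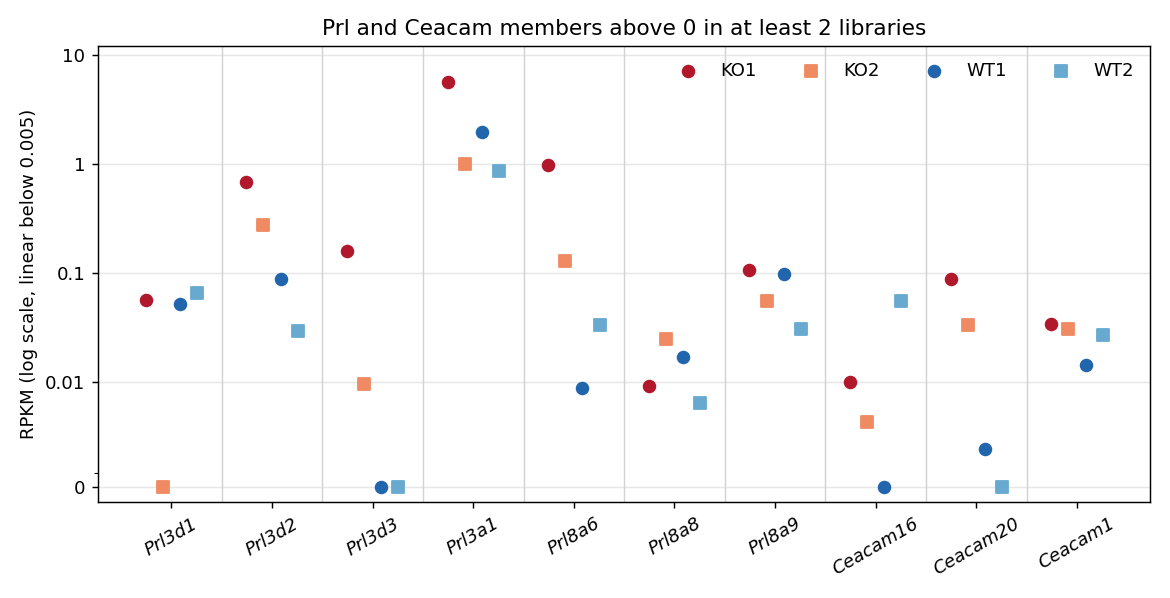
Level in RPKM (vertical axis, logarithmic above 0.005 and linear below) of the 10 Prl and Ceacam members with rows in all 4 libraries that were above 0 in at least 2 of them; each point is 1 library, KO1 and KO2 in reds and WT1 and WT2 in blues. Prl3a1 is the most abundant in each library and its genotypes overlap, while the points of KO1 and KO2 lie above those of WT1 and WT2 for Prl3d2, Prl3d3, Prl8a6, Ceacam20 and, narrowly, Ceacam1.

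Prl3a1, which encodes prolactin-like protein I, was the most abundant member. It lies at chr13:27351358-27368529 (mm9, plus strand). Its level was 5.55 RPKM in KO1 and 0.985 RPKM in KO2, against 1.97 RPKM in WT1 and 0.861 RPKM in WT2, and it was the only member above the limit for testing (at least 0.5 RPKM in at least 2 libraries). KO1 stood far above the other 3 libraries, and the genotypes overlapped because KO2 lay between WT2 and WT1. In bulk RNA such as this, fewer expressing cells and less RNA per cell cannot be told apart.

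These Prl3a1 values correspond to 871 and 172 reads in KO1 and KO2, against 333 and 195 reads in WT1 and WT2. Per mapped read the KO to WT ratio was 2.82 (exact 95% interval 2.48 to 3.21) between the replicate 1 libraries and 1.14 (0.927 to 1.41) between the replicate 2 libraries. Such intervals cover counting error only and compare those libraries, not the genotypes. The log2 change on log2(RPKM + 0.5) was 0.71 (SE 0.81, n = 2 per genotype), with an adjusted p of 1.00 in limma with genotype as the only term. That fit called 0 of 11147 genes (0%), and 41 genes had an unadjusted p below 0.05. Without KO1, which sets KO2 against both WT libraries, the log2 change of Prl3a1 was -0.30, although KO2 was above WT2 within replicate 2.

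Prl3a1 differed between the replicate numbers. The log2 change of replicate 2 minus replicate 1 was -1.44 (SE 0.28), with an adjusted p of 0.0053 in limma fitted on genotype and replicate number. Both replicate 2 libraries lay below both replicate 1 libraries. In that fit 47.8% of all genes tested differed between the numbers, and 11.9% were lower in replicate 2, so the libraries split by number for much of the genome. Genotype values are therefore given within each number throughout.

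Prl3d2 was the most abundant of the placental lactogen I copies. Its level was 0.686 RPKM in KO1 and 0.275 RPKM in KO2, against 0.0880 RPKM in WT1 and 0.0293 RPKM in WT2. The genotypes did not overlap: the lower KO library was above the higher WT library. In reads this was 65 and 29 in KO1 and KO2, against 9 and 4 in WT1 and WT2. The KO to WT ratio per mapped read was 7.79 (3.86 to 17.8) for replicate 1 and 9.40 (3.30 to 36.8) for replicate 2, and the intervals overlapped. With no limit on low values, its log2 change was 0.78 (SE 0.26) and its adjusted p in limma 1.00.

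Prl3d3 followed at a lower level. It was at 0.158 RPKM in KO1 and 0.00949 RPKM in KO2, and was listed at 0 in WT1 and WT2. This was 15 reads in KO1 and 1 read in KO2, against 0 reads in each WT library, so only the replicate 1 libraries carry the difference. The exact 95% lower limit of the ratio for replicate 1 was 3.87. The genotypes of Prl3d1 overlapped. It was at 0.0562 RPKM in KO1 and listed at 0 in KO2, against 0.0521 RPKM in WT1 and 0.0650 RPKM in WT2. KO1 and WT1 had 6 reads each (ratio 1.08, 0.288 to 4.04), whereas KO2 had 0 reads and WT2 had 10, which puts the upper limit of the ratio for replicate 2 at 0.579.

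A sum over the copies is less open to how reads were divided among them, but not free of it. The implied lengths differ (871 bases for Prl3d1, 774 for Prl3d2 and Prl3d3). Reads with several matches may also have been dropped or counted more than 1 time. Summed over Prl3d1, Prl3d2 and Prl3d3, placental lactogen I transcripts were at 0.900 RPKM in KO1 and 0.285 RPKM in KO2, against 0.140 RPKM in WT1 and 0.0943 RPKM in WT2. The sum did not overlap between the genotypes, and KO over WT was 6.43 for replicate 1, 3.02 for replicate 2 and 5.06 over the means. Prl3b1, which encodes placental lactogen II, and Prl3c1, which encodes prolactin-like protein J, were listed at 0 in KO1 and WT1.

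Prl8a6 showed the largest KO to WT ratio within replicate 1 among the members with reads in both libraries. It belongs to the prolactin-like protein C group and lies at chr13:27524722-27530466 (mm9, minus strand). Its level was 0.970 RPKM in KO1 and 0.128 RPKM in KO2, against 0.00881 RPKM in WT1 and 0.0330 RPKM in WT2, with no overlap between the genotypes. The reads behind it were 102 and 15 in KO1 and KO2, against 1 and 5 in WT1 and WT2. The ratio per mapped read was 110 (19.3 to 4390) for replicate 1, where WT1 had a single read, and 3.89 (1.34 to 13.7) for replicate 2. The size of the difference thus differed between the numbers, and the intervals of the ratios did not overlap. With no limit on low values the log2 change was 0.88 (SE 0.46), with an adjusted p of 1.00 in limma. Of all 21032 genes, 18 (0.0856%) reached 0.5 RPKM in KO1 and were below 0.05 RPKM in WT1, and Prl8a6 was the only member among them; the reverse held for 8 genes (0.038%), none of them a member.

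For the other Prl8a genes with rows in all 4 libraries the genotypes overlapped. Prl8a9, also of the prolactin-like protein C group, was at 0.105 RPKM in KO1 and 0.0551 RPKM in KO2, against 0.0972 RPKM in WT1 and 0.0303 RPKM in WT2. Its genotypes overlapped, and the ratios of its reads were 1.08 (0.443 to 2.63) and 1.82 (0.496 to 7.26) for replicates 1 and 2, so a difference was not detectable at this depth. Prl8a8 had 1 and 3 reads in KO1 and KO2 and 2 and 1 reads in WT1 and WT2, and its levels did not exceed 0.0247 RPKM. Prl8a2 was listed above 0 in KO2 alone, at 0.0161 RPKM, and Prl8a1 was listed at 0 in KO1 and WT1. Prl8a6 was thus the only Prl8a gene whose KO libraries both lay above both WT libraries.

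**Figure D2:**
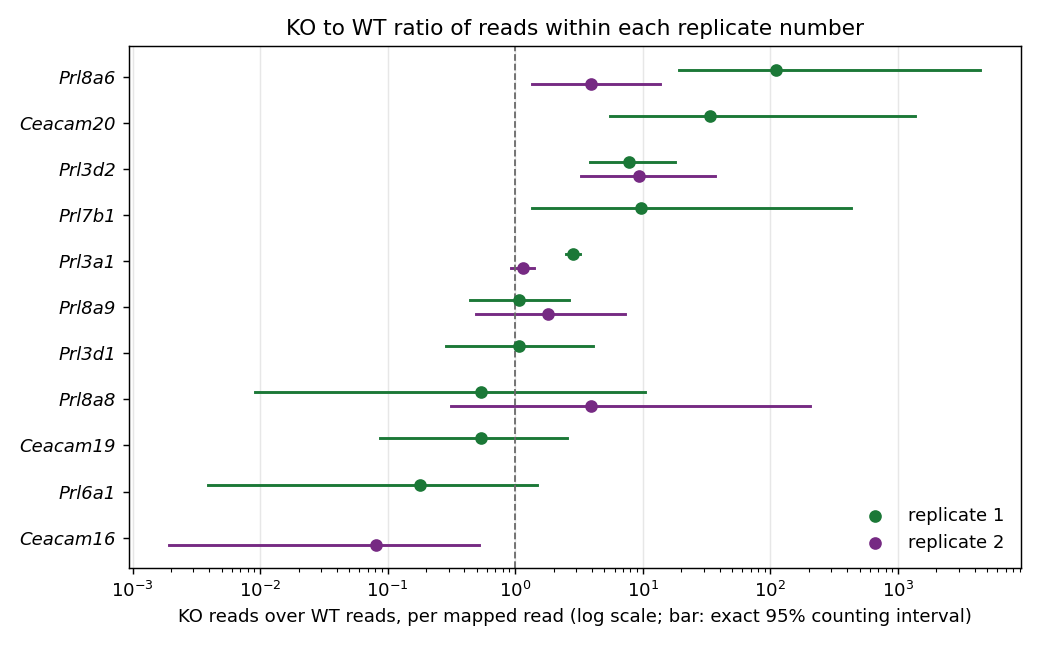
Ratio of KO reads to WT reads per mapped read (horizontal axis, logarithmic, no unit) within replicate 1 (green) and replicate 2 (purple) for the members whose whole reads could be recovered and that had reads in both libraries compared; bars are exact 95% intervals of counting error, and the dashed line marks equal levels. Prl3d2 and Prl8a6 have intervals above 1 in both numbers, Prl3a1 in replicate 1 but not in replicate 2, and Ceacam20 and Prl7b1 in replicate 1, for which alone they are plotted; Ceacam16 lies below 1 in replicate 2.

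The other Prl genes have rows in KO1 and WT1 alone, so each value below rests on 1 library per genotype. No difference has a listed replicate check. If a missing row stands for 0 in KO2 and WT2, which is not stated, these differences did not recur in replicate 2. Of all 41 members with such rows 8 were higher and 4 lower in KO1, against 5.94% and 3.61% of all 4766 genes with such rows. Prl, the gene of pituitary prolactin, was at 0.493 RPKM in KO1, against 0.102 RPKM in WT1, summed over its 2 transcripts. The pituitary genes Pou1f1, the factor that drives prolactin in the pituitary, Gh, Tshb and Cga were listed at 0 in both of these libraries. Pomc, also a pituitary gene, had reads, at 0.284 RPKM in KO1 and 0.368 RPKM in WT1. Of the proliferins, growth factors that promote vessel growth and bind the receptor Igf2r, Prl2c4 was at 0.273 RPKM in KO1 and listed at 0 in WT1. Prl2c3 was at 0.106 RPKM in KO1 and listed at 0 in WT1, and Prl2c2 at 0.0207 RPKM in KO1 and at 0 in WT1. Prl2c5 went the other way and was listed at 0 in KO1 and at 0.0218 RPKM in WT1. The mm9 rows of Prl2c4 and Prl2c3 cover nearly the same interval (chr13:12883083-12892325 and chr13:12883088-12892346, minus strand), so these 2 values cannot be taken as separate genes. Summed over Prl2c2, Prl2c3, Prl2c4 and Prl2c5, proliferin transcripts were at 0.400 RPKM in KO1, against 0.0218 RPKM in WT1; this sum holds both overlapping rows, so 1 locus may enter it under 2 names.

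Among the prolactin-like proteins, Prl7b1 (prolactin-like protein N) was at 0.0794 RPKM in KO1, against 0.00818 RPKM in WT1, or 9 reads against 1 (ratio 9.71, 1.35 to 426). Prl7a1, Prl2b1 (prolactin-like protein K) and Prl7a2 were at 0.0426, 0.0284 and 0.00639 RPKM in KO1 and listed at 0 in WT1. Prl6a1 (prolactin-like protein B) had 1 read in KO1 and 6 in WT1, with levels of 0.00941 RPKM and 0.0523 RPKM (ratio 0.180, 0.00391 to 1.48). Prl7c1 was listed at 0 in KO1 and at 0.0149 RPKM in WT1. Prl7d1, the proliferin-related protein, and Prl2a1, Prl2c1, Prl4a1 and Prl5a1 were listed at 0 in both.

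**Figure D3:**
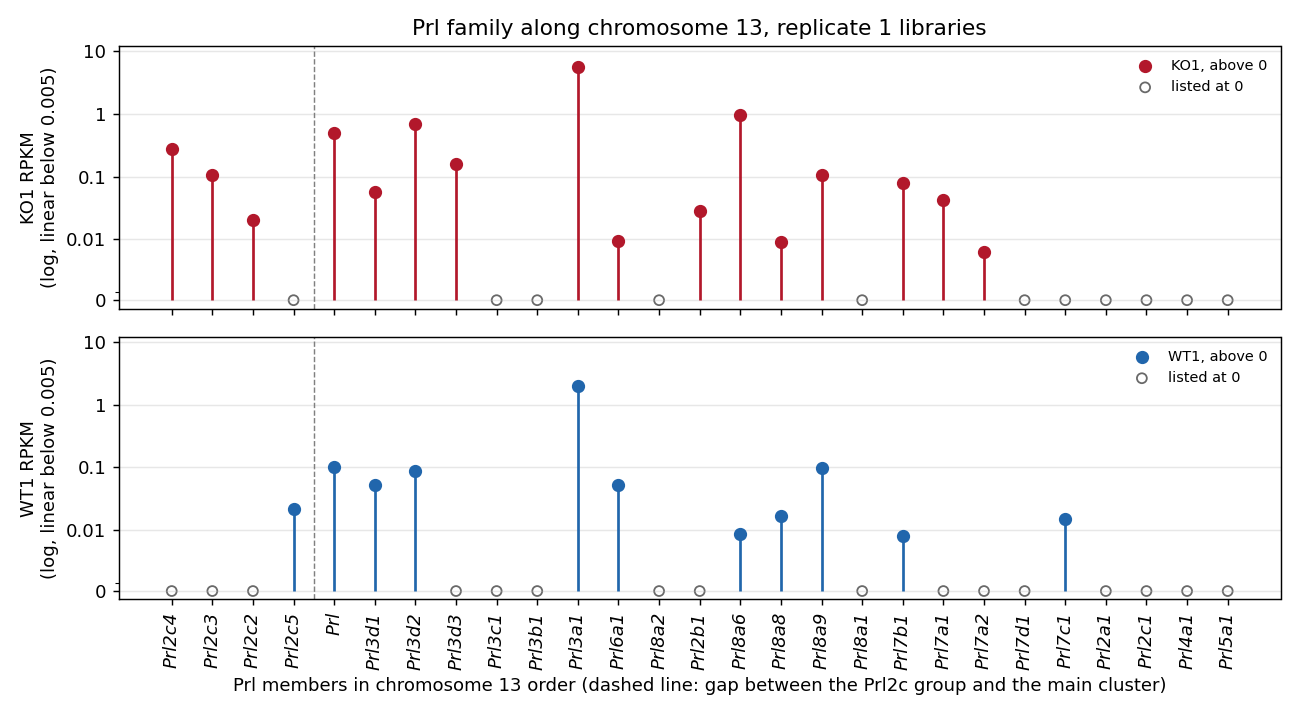
Level in RPKM (vertical axes, logarithmic above 0.005 and linear below) of the 27 Prl genes in their order on chromosome 13, in KO1 (upper panel) and WT1 (lower panel), with open circles for genes listed at 0. KO1 shows 16 genes above 0 and WT1 shows 11; in both, Prl3a1 is the highest, and the end of the main cluster from Prl2a1 to Prl5a1 is listed at 0.

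Along chromosome 13 the members above 0 in KO1 and WT1 lay next to members at 0, as the plot of the Prl genes in chromosome order shows. In KO1, 16 of the 27 Prl genes were above 0, against 11 in WT1; 7 were above 0 in KO1 alone and 2 in WT1 alone. Summed over all 27, Prl transcripts were at 8.59 RPKM in KO1, against 2.43 RPKM in WT1, and without Prl3a1 at 3.04 RPKM in KO1, against 0.462 RPKM in WT1. Over the 8 Prl genes with rows in all 4 libraries the sum was 7.53 RPKM in KO1 and 1.49 RPKM in KO2, against 2.23 RPKM in WT1 and 1.03 RPKM in WT2. KO over WT was 2.77 over the means, 3.38 for replicate 1 and 1.46 for replicate 2, and the genotypes overlapped because WT1 was above KO2. Prl3a1 made up most of this sum. Without it the sum was 1.98 RPKM in KO1 and 0.509 RPKM in KO2, against 0.263 RPKM in WT1 and 0.164 RPKM in WT2; the genotypes did not overlap, and KO over WT was 5.84 over the means, 7.54 for replicate 1 and 3.10 for replicate 2. Without KO1 the ratio of the means of all 8 genes was 0.919; KO2 is then set against both WT libraries, whereas within replicate 2 KO was the higher.

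Of the 13 Psg genes, all were listed at 0 in KO1 and WT1. Psg16 and Psg28, which alone have rows in all 4 libraries, were at 0.00643 RPKM and 0.00748 RPKM in KO2 and listed at 0 in WT2. These levels lie below the 0.0220 RPKM that 3 reads per kb correspond to in KO2, so no difference was detectable at this depth. The other 11 Psg genes have no rows in KO2 and WT2.

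In the Ceacam family, Ceacam20, known from the microvilli of intestinal epithelium, was the most abundant member on average. It lies at chr7:20550761-20576460 (mm9, plus strand) and was at 0.0874 RPKM in KO1 and 0.0330 RPKM in KO2, against 0.00261 RPKM in WT1 and a listed 0 in WT2. The reads were 31 and 13 in KO1 and KO2, against 1 and 0 in WT1 and WT2, with no overlap between the genotypes. The ratio per mapped read was 33.5 (5.58 to 1363) for replicate 1, and for replicate 2, where WT2 had no read, the exact 95% lower limit of the ratio was 3.95. With no limit on low values the log2 change was 0.16 (SE 0.060), a scale on which the pseudocount of 0.5 dwarfs these levels, and the adjusted p in limma was 1.00.

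Ceacam16, a protein of the tectorial membrane of the inner ear, went the other way in replicate 2. It was at 0.00999 RPKM in KO1 and 0.00449 RPKM in KO2, against a listed 0 in WT1 and 0.0554 RPKM in WT2. It had 2 reads in KO1 and 1 in KO2, against 0 in WT1 and 16 in WT2, so WT2 alone was high; the ratio for replicate 2 was 0.0811 (0.00193 to 0.522), and the genotypes overlapped. Ceacam1, an adhesion receptor of epithelia, endothelium and leukocytes, was at 0.0336 RPKM in KO1 and 0.0302 RPKM in KO2, against 0.0143 RPKM in WT1 and 0.0269 RPKM in WT2, summed over 4 transcripts. These are 4.11 and 4.11 reads per kb in KO1 and KO2, against 1.89 and 4.75 in WT1 and WT2, so the lack of overlap rests on differences of under 3 reads per kb. Ceacam19 had 3 reads in KO1 and 6 in WT1 (ratio 0.540, 0.0873 to 2.53), Ceacam11 was listed above 0 in KO2 alone at 0.00727 RPKM, and the other 10 Ceacam genes were listed at 0 in KO1 and WT1.

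The Ceacam genes with rows in all 4 libraries summed to 0.131 RPKM in KO1 and 0.0750 RPKM in KO2, against 0.0169 RPKM in WT1 and 0.0823 RPKM in WT2. The ratio of KO over WT was 2.08 over the means, 7.74 for replicate 1 and 0.911 for replicate 2, and it was 0.886 without Ceacam20. As a family the Ceacam genes thus had no common direction in both numbers.

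Counting listed values above 0, 10 and 13 of the 14 members with rows in all 4 libraries were detected in KO1 and KO2, against 8 and 8 in WT1 and WT2. Of the 14, 7 were detected in more KO than WT libraries and 1 in more WT than KO libraries. With a limit of 0.01 RPKM these counts were 4 and 2, and with a limit of 0.05 RPKM they were 5 and 2. Prl8a2, Psg16, Psg28 and Ceacam11, all among the 7, were above 0 in KO2 alone. Of all 16266 genes with such rows, 0 were at 0 in both KO2 and WT2. These members thus seem to be in the set only through KO2, so the counts are partly set by that choice. Above 0 in KO2 but not in WT2 were 6 of the 14 members and 586 of all these genes. The reverse held for 1 member and 467 genes. In the replicate 1 libraries, 36.4% of the 55 members were above 0 in KO1 and 25.5% in WT1, against 72.8% and 71.5% of all genes.

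Genes on which these proteins act were not called by the genotype-only fit. That fit called 0 of 11147 genes (0%) and has little power, so its counts of 0 below do not set these genes apart. With the replicate number as a term 0 of them were called as well, beside 0.673% of all genes tested. Of 15 genes of the prolactin receptor pathway 14 were tested and 0 were called; in both numbers KO was higher for 2 and lower for 6, and their median log2 change was -0.018, beside -0.021 over all genes tested. Prlr itself was low, at 0.0221 RPKM in KO1 and 0.260 RPKM in KO2, against 0.0139 RPKM in WT1 and 0.394 RPKM in WT2. Jak2 was at 2.61 RPKM in KO1 and 4.99 RPKM in KO2, against 2.99 RPKM in WT1 and 4.27 RPKM in WT2. Igf2r, which binds proliferin, was at 21.9 RPKM in KO1 and 48.8 RPKM in KO2, against 22.7 RPKM in WT1 and 51.7 RPKM in WT2. Both receptors separated the replicate numbers and not the genotypes. Of 14 Psg partners, such as the integrin subunit Itgb1 and the syndecans, 12 were tested and 0 called (4 higher and 5 lower in both numbers, median log2 change 0.069). Of 10 Ceacam partners 8 were tested and 0 called (2 higher and 4 lower in both numbers, median 0.031).

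Most of the transcription factors and markers that accompany these families in placenta were not higher in KO. Of 28 trophoblast markers, 19 have rows in all 4 libraries; in both numbers KO was higher for 2 (Eomes and Prdm1) and lower for 10. Of the 9 tested, 0 were called with genotype as the only term (median log2 change -0.40), while with the replicate number as a term Krt7 was lower in KO (limma adjusted p 0.0227). Prdm1, a transcription factor of several lineages, was at 1.62 RPKM in KO1 and 0.239 RPKM in KO2, against 0.921 RPKM in WT1 and 0.104 RPKM in WT2. Gata2, which acts on the placental lactogen I promoter, was at 3.25 RPKM in KO1 and 2.32 RPKM in KO2, against 7.00 RPKM in WT1 and 2.38 RPKM in WT2. Gata3 was at 0.617 RPKM in KO1 and 1.42 RPKM in KO2, against 1.99 RPKM in WT1 and 1.75 RPKM in WT2. Hand1, a factor of trophoblast giant cells, lay between 0.0301 and 0.0917 RPKM in the 4 libraries, with WT1 the highest.

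The trophoblast sum kept the genotypes apart, at 71.5 and 70.1 RPKM in KO1 and KO2, against 80.0 and 89.9 RPKM in WT1 and WT2. Most of it came from Ly6e. Among the markers of cells other than trophoblast and fibroblasts, only the epithelial sum did so. The trophoblast and epithelial lists share Krt7, Krt8 and Krt18. Most macrophage and blood markers were lower in KO within both numbers, but their sums overlapped. The endothelial sums and the pituitary and decidual sums split by replicate number. The summed level of 12 macrophage and blood markers with rows in all 4 libraries was 8.35 RPKM in KO1 and 86.2 RPKM in KO2, against 60.5 RPKM in WT1 and 176 RPKM in WT2, and 11 of the 12 were lower in KO within both numbers. Of 10 epithelial markers 1 was higher and 5 lower in both numbers, with summed levels of 7.96 and 6.28 RPKM in KO1 and KO2, against 18.6 and 18.8 RPKM in WT1 and WT2. Of 8 endothelial markers 1 was higher and 2 lower, with sums of 1.91 and 8.33 RPKM in KO1 and KO2, against 2.37 and 9.11 RPKM in WT1 and WT2. Of 10 pituitary and decidual markers 5 have such rows, with 2 higher and 1 lower and sums of 422.8 and 76.5 RPKM in KO1 and KO2, against 375.1 and 54.6 RPKM in WT1 and WT2, nearly all of it from Ptgs2 and Cryab. The genotype-only fit called 0 genes of any of these lists, as it called 0 of all genes tested. The part of other cells in the differences of the Prl and Ceacam genes was not tested.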

How the data were processed

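RNA of 4 libraries was used; 18 samples of other assays are not analysed here. Per the labels' protocols, poly-A RNA was selected after rRNA removal and sequenced on a Genome Analyzer IIx. The authors deposited RPKM per RefSeq transcript on chromosomes 1 to 19. Of the tools, Partek and the build mm9 come from the submitters' processing notes and Cufflinks from a deposited readme. The sources used here do not give the aligner, the use of strand or how reads with several matches were counted. Rows absent from the replicate 2 libraries were not filled in.

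Transcript rows were summed per symbol. Every gene that reached 0.5 RPKM in 2 or more libraries entered the test, made on log2(RPKM + 0.5) with limma 3.58.1 in R 4.3.3 (trend, robust variance, genotype as the only term, two-sided, Benjamini-Hochberg threshold of 0.05 over all genes tested); fold changes on this scale understate the change of low genes. The script was tested on simulated data, in which this fit missed the changes put in and a fit that also held the replicate number found nearly all of them, with some false calls. The simulated shift between replicate numbers was equal in both genotypes, which the latter fit assumes. That outcome therefore does not give its power in these data.

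In single-exon olfactory receptor genes, RPKM times length and depth gave whole reads within 0.02 of a read in all 17 to 40 loci used per library, which gave the depth. For members with 1 transcript and at least 2 libraries above 0, the smallest length that made all values whole gave the reads, and exact Clopper-Pearson intervals (95%) were computed for the ratio of reads within a replicate number. Promoters came from a RefSeq table (GRCm38.p6; 45 of 55 members matched by symbol) and were aligned with Biopython 1.88.

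The members, the gene lists and the tests were chosen with earlier results of these data known. Members at 0.1 RPKM in at least 1 library, above 0 in at least 2 libraries or past the threshold are given in full. Alternatives were other pseudocounts, filters, scalings, transcript choices and detection limits, the replicate number as a term, and leaving out each library.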

Additional observations from a re-analysis of the deposited data

Results flagged for a closer look

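The 41 members with rows in the replicate 1 libraries alone enter no fit, yet some were listed above 0. In KO1 there were 10 of these 41 (24.4%), against 6 in WT1 (14.6%). Of all 4766 genes with such rows, 6.55% were above 0 in KO1, against 4.53% in WT1. Of the 41 members 8 were higher in KO1 and 4 lower (5.94% and 3.61% of all such genes). Summed over the 41, the level was 1.07 RPKM in KO1, against 0.217 RPKM in WT1, with Prl the highest in both libraries. The replicate 2 libraries have no rows for these genes, so the difference has no replicate check and was not tested. The members are also not independent of each other.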

How the results depend on the processing

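With genotype as the only term, 0 genes and 0 members were called under every pseudocount, scaling, filter and transcript choice tried and without each library in turn (0 to 0); that fit has little power here, so these counts are no sign of stability. The replicate numbers are 2 pairs that the labels do not tie together; same-numbered libraries deviated together (correlation 0.875 over 11147 genes). With the replicate block 75 genes were called (42 higher, 33 lower), 40 of all genes with a pseudocount of 0.1 RPKM, 140 with median-ratio scaling and 0 with no filter. No member was called under the replicate block: Prl3a1 had an adjusted p of 0.515 in limma, and with no filter Prl3d2 had 0.476, Ceacam20 0.578 and Prl8a6 0.632. Of the lists, Ctla2a (higher), Krt7, Krt19 and 4 macrophage and blood markers (lower) were called with that block.

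The log2 change of Prl3a1 ran from -0.30 (without KO1) to 1.72 (without KO2). Leaving out libraries moved the Prl ratio between 0.919 (without KO1) and 4.63, and that of Ceacam between 1.25 and 6.08; without the highest member they were 5.84 for Prl and 0.886 for Ceacam. Of 90 values of the 9 other members' log2 changes, 11 moved beyond the spread between libraries and 79 did not. All 9 members moved with a pseudocount of 0.1 RPKM, for example Prl3d2 from 0.78 to 1.80 and Prl8a6 from 0.88 to 2.04. The count of 79 includes values that could not move. The replicate number as a term leaves these changes as they are, as does the transcript choice for members with 1 transcript.

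At a limit of 0.01 RPKM, 8 members were detected in KO1, 8 in KO2, 6 in WT1 and 7 in WT2. At that limit 4 were detected in more KO than WT libraries. At 0.05 RPKM, 7 were detected in KO1, 4 in KO2, 4 in WT1 and 3 in WT2. With missing rows counted as 0, 20 were detected in KO1, 14 in WT1 and 13 in more KO than WT libraries. Depth limits all members below about 3 reads per kb.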

Other observations

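Other placental tandem families were measured too. Of 18 listed genes 8 have rows in all 4 libraries. Of these, 7 were higher in KO within both replicate numbers and 0 lower, against 23% and 29% of all genes. Serpinb9c, Serpinb9d, Serpinb9e and Serpinb9g, all among the 7, were listed at 0 in WT2. Of all 16266 genes with such rows, 0 were at 0 in both KO2 and WT2. The direction of these Serpinb9 genes within replicate 2 was thus fixed, and the count of 7 is partly set by which genes have rows. With genotype as the only term, 0 of the 3 tested were called. Serpinb9b, a relative of the granzyme B inhibitor Serpinb9, was at 45.3 RPKM in KO1 and 4.38 RPKM in KO2, against 14.8 RPKM in WT1 and 3.07 RPKM in WT2. The number of the library separated these values more than the genotype did, as it did for Prl3a1.

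Serpinb9g, from the same cluster on chromosome 13, was at 3.01 RPKM in KO1 and 0.0726 RPKM in KO2, against 0.0236 RPKM in WT1 and a listed 0 in WT2. Serpinb9e was at 1.86 RPKM in KO1 and 0.0535 RPKM in KO2, against 0.0315 RPKM in WT1 and a listed 0 in WT2. Both were highest in KO1, as Prl8a6 was, and both belong to the 18 genes at 0.5 RPKM or more in KO1 and below 0.05 RPKM in WT1. Ctla2a, an inhibitor of cysteine proteases, was at 20.6 RPKM in KO1 and 16.4 RPKM in KO2, against 4.90 RPKM in WT1 and 5.26 RPKM in WT2, with no overlap. The placental cathepsins Cts3, Cts6, Cts7, Cts8, Ctsj, Ctsm, Ctsq and Ctsr were listed at 0 in KO1 and WT1. The Serpinb9 and Ctla2 genes are close copies of each other within each family, so the copy that a read came from is uncertain.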
